A study of Mus musculus with 10 samples.

Results

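The 39 genes described here encode the contractile apparatus of smooth muscle and the structures that anchor it to the cell surface. They were taken by name from a list whose rule has no measured value in it but which was drawn up with earlier results of these data known, and 39 of 39 were present among the 18398 genes of the deposited table. RNA of mouse colon was sequenced in 10 samples of wild-type (WT) genotype. The labels assign 5 samples to a normal diet, the control, and 5 to a diet called pro-inflammatory. The title of the series refers to colitis, but the labels used here do not say whether colitis was induced in any sample. Strain, age, sex, composition and length of the diets, and the part of the colon taken are not given in these sources. Nothing in the labels says that the samples came from separate animals, so the p-values reflect the spread among these libraries alone, and that spread may be technical. Libraries are named by diet and by the number in their title.

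Smooth muscle of the colon lies mainly in the circular and longitudinal layers of the muscle wall, with a thin layer beneath the mucosa and further cells around blood vessels. It contracts when calcium entering through voltage-gated channels activates myosin light chain kinase, which phosphorylates the regulatory light chain of myosin, and it relaxes when a myosin phosphatase removes that phosphate. Actin filaments end in dense bodies inside the cell and in dense plaques at its surface, which correspond to the Z-discs and costameres of striated muscle. Transcription of many of these genes depends on serum response factor, which binds CArG boxes, on its coactivator myocardin, and on TEAD factors, which bind a shorter element.

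Promoter windows are shown first because the regulators Myocd and Tead1 are among the genes described and several of the others are known targets of such factors. Windows of 250 bases upstream of the start were available from RefSeq (GRCm38.p6) for 31 of the 39 genes, 40 windows in all. Actg2, Myh11, Myocd, Nexn, Svil, Tagln, Tead1 and Tgfb1i1 had no window and were not searched. The CArG box was searched on both strands only as CCWWWWWWGG, where W is A or T, so boxes that differ by a base were not counted. It occurred in 4 of these 40 windows, from the 3 genes Myl9, Vcl and Ldb3, and in 1.47% of all 32851 windows of that length. The 2 windows of Ldb3 hold the same box. The core of the TEAD element, CATTCC or its complement GGAATG, occurred in 11 of the 40 windows and in 12.6% of all windows. A match is a description of letters and not a binding site. The windows with a CArG box and the window of Lmod1, which has the TEAD element alone, are printed up to the annotated gene start, with these motifs in capitals. They lie at chr2:156775214-156775419 (Myl9, plus strand), chr14:20929148-20929397 (Vcl, plus strand), chr14:34588683-34588931 (Ldb3, minus strand) and chr1:135324563-135324806 (Lmod1, plus strand).
Myl9: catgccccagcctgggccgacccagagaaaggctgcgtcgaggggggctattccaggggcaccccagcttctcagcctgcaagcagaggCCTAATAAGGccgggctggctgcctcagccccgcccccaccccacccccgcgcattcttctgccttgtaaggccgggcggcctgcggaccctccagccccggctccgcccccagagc
Vcl: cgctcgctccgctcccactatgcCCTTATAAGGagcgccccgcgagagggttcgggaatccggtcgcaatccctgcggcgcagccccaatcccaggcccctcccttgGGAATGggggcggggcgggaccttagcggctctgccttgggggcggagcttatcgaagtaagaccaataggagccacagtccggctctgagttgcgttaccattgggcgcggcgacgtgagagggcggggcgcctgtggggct
Ldb3: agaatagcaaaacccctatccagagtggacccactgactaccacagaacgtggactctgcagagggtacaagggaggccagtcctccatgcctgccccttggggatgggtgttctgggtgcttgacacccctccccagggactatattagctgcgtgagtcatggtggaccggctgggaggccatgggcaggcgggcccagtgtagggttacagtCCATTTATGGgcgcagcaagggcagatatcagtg
Lmod1: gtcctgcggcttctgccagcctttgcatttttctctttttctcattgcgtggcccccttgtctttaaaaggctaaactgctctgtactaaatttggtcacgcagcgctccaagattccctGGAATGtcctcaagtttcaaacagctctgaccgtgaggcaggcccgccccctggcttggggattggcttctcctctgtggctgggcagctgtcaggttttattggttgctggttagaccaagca
In Myl9 the CArG box begins 161 bases before the RefSeq start, in Vcl 227 and in Ldb3 35. The TEAD element begins 143 bases before the start in Vcl and 130 in Lmod1.

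Values are FPKM, sequenced fragments scaled by gene length and by library total, and were compared on log2(FPKM + 1), a scale that understates the change of low genes. The FPKM values resolved into whole reads, which gave 15.7 to 18.3 M reads on genes per library. Reads per library on the genes described ranged from 112 for Itga8 to 38742 for Myh11, so counting noise was small for most of them. Several libraries stood apart from the rest. Normal diet library 4 held 706 summed FPKM of 13 skeletal muscle markers, against 11.5 to 15.8 in the other normal diet libraries and 11.7 to 23.3 for pro-inflammatory diet. Its skeletal actin Acta1 was at 179 FPKM and its fast troponin Tnnt3 at 105, while Tnnt3 was at 0.11 to 0.46 in the other 9 libraries. Hoxb13, a marker of distal colon, was at 0.42 and 20.9 FPKM in pro-inflammatory diet libraries 2 and 5 and at 211 to 341 in the other 8. Dbp, an output gene of the circadian clock, lay between 1.79 and 6.69 FPKM in normal diet libraries 1, 2 and 3 and between 12.4 and 54.3 in the other 7. The part of these differences in the results below was not tested, and values without the libraries concerned are given beside the results that rest on them.

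Together the 39 genes made up about 1% of all FPKM, and their share was on average lower for pro-inflammatory diet, with overlap between the diets. The share was 1.496%, 1.001%, 1.26%, 1.25% and 1.42% in normal diet libraries 1 to 5. It was 1.01%, 0.912%, 0.890%, 1.03% and 1.165% in pro-inflammatory diet libraries 1 to 5. Means were 1.285% ± 0.19 for normal diet and 1.0004% ± 0.109 for pro-inflammatory diet (SD, n = 5 each), a ratio of 0.779. Normal diet library 2 lay inside the pro-inflammatory range and was the lowest of its diet for 34 of the 39 genes. Pro-inflammatory diet library 3 was the lowest of all 10 libraries for 20 genes and normal diet library 1 the highest for 21. The difference between the diets was -0.285 percentage points over all libraries and -0.355 without normal diet library 2. A core of 12 contractile and filament genes (Acta2, Actg2, Myh11, Myl9, Tagln, Cnn1, Tpm1, Tpm2, Lmod1, Smtn, Des and Synm) held most of the share, 1.02% ± 0.155 against 0.794% ± 0.0949. The other 27 genes held 0.267% ± 0.0355 against 0.207% ± 0.0187. In these tissue samples, fewer smooth muscle cells and less of these RNAs per cell cannot be told apart.

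**Figure D1:**
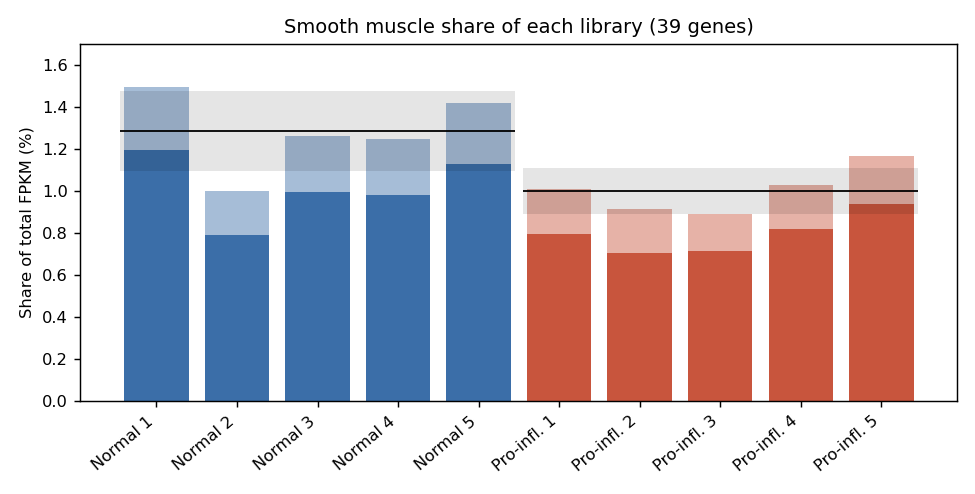
Share of total FPKM (%, vertical axis) held by the 39 smooth muscle genes in each library, normal diet in blue and pro-inflammatory diet in red, with the 12 core genes as the darker lower part of each bar and the other 27 as the lighter part. Black lines are group means and grey bands ± 1 SD (n = 5 each); normal diet library 2, at 1.001%, sits among the pro-inflammatory diet libraries.

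Across single genes, 38 of the 39 had a negative log2 fold change (pro-inflammatory minus normal diet), where 52.9% of the 12345 genes tested did. The median was -0.35, against -0.01 over all genes tested, and the values ran from -0.57 for Itga8 to 0.01 for Tgfb1i1. No gene of the 12345 passed limma's Benjamini-Hochberg threshold of 0.05, a background of 0%, and the lowest adjusted p among the 39 genes was 0.151. Voom on the whole reads also called 0 genes. At an unadjusted p under 0.05, 30 of the 39 genes were lower and 0 higher, where 9.25% of all genes tested were lower and 8.16% higher. For 4 of the 39, Lpp, Cacna1c, Myocd and Tead1, all 5 pro-inflammatory diet values lay below all 5 normal diet values, as for 2.07% of all genes tested, and for 0 they lay above, where 1.77% did. Without pro-inflammatory diet libraries 2 and 5, 28 of the 39 were lower at an unadjusted p under 0.05 (7.36% of all genes), and the median was -0.35. Without normal diet libraries 1, 2 and 3, 25 were (2.26% of all genes), with a median of -0.38. Leaving out normal diet libraries 1 to 5 in turn gave 21, 34, 23, 24 and 20 such genes, where 6.82%, 7.83%, 6.56%, 12.3% and 7.48% of all genes were lower. Leaving out pro-inflammatory diet libraries 1 to 5 in turn gave 25, 27, 22, 26 and 27, where 11.7%, 8.23%, 8.56%, 9.12% and 6.54% were. With a distal colon score in the fit, 27 were (9.58% of all genes). The 39 genes are longer than most, with a median length of 5292 bases against 3393 over the genes tested. With the trend of each library with gene length removed, 39 of 39 were below 0, 26 of them at an unadjusted p under 0.05 (7.40% of all genes), and the median was -0.30.

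**Figure D2:**
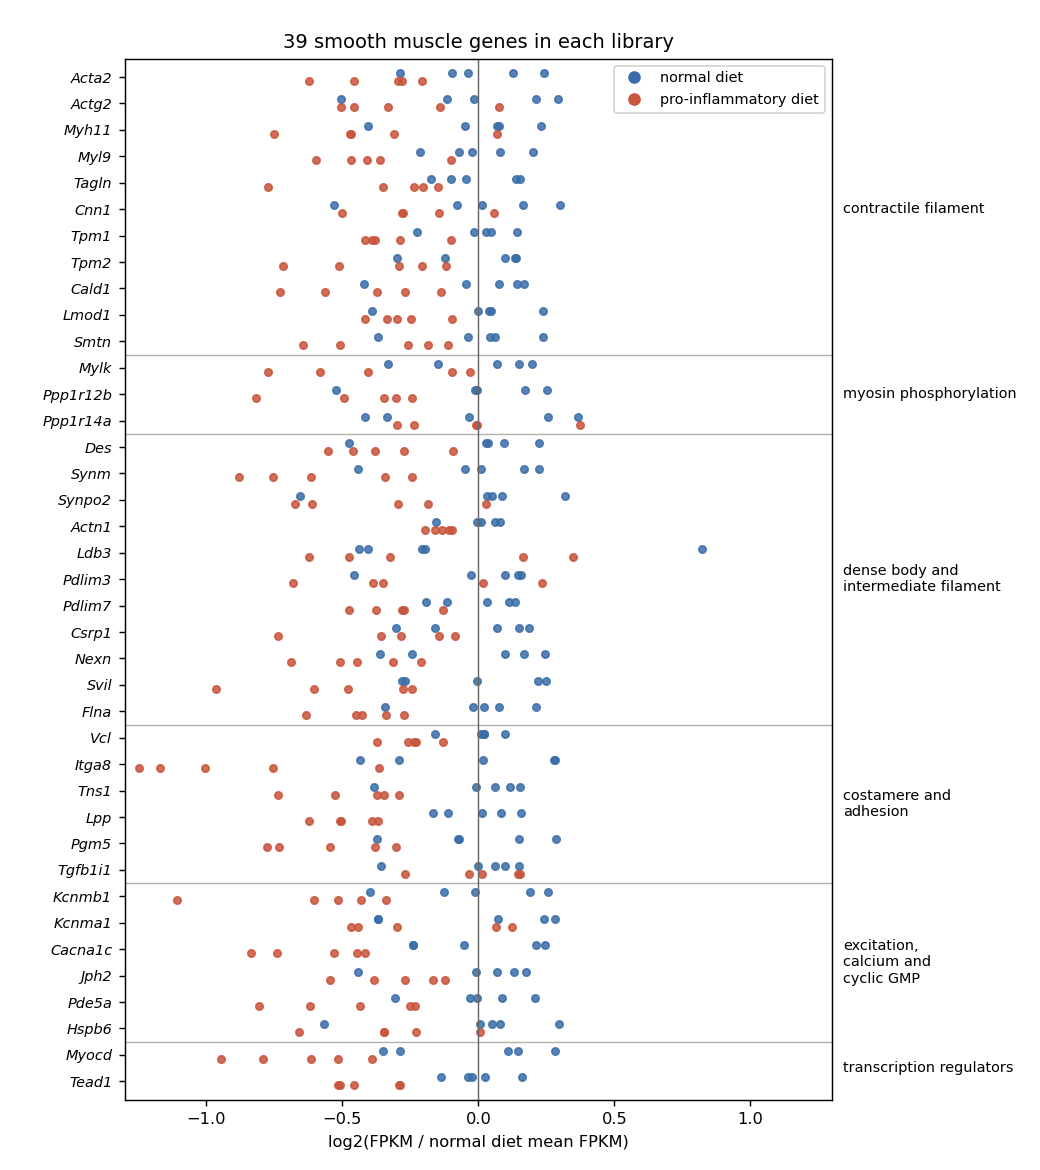
Each of the 39 genes in each library as log2 of its FPKM over the normal diet mean (horizontal axis), grouped by role, with normal diet libraries in blue and pro-inflammatory diet libraries in red. Red points lie mostly left of the blue ones, and the diets do not overlap for Lpp, Cacna1c, Myocd and Tead1.

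The contractile filament genes were the most abundant, and 11 of 11 had lower means for pro-inflammatory diet, 9 of them at an unadjusted p under 0.05 (9.25% of all genes tested), with a median log2 fold change of -0.34. Tagln, which encodes the actin-binding protein transgelin, was at 811, 652, 713, 686 and 819 FPKM in normal diet libraries 1 to 5. It was at 664, 431, 577, 639 and 626 in pro-inflammatory diet libraries 1 to 5. The diets overlapped only through normal diet library 2, at 652, and pro-inflammatory diet library 1, at 664. Myl9, the regulatory light chain that the kinase phosphorylates (chromosome 2, 156775420 to 156781658, plus strand, GRCm38), was at 595, 446, 510.2, 493 and 547 FPKM for normal diet. It was at 403, 390.01, 343, 374 and 483 for pro-inflammatory diet. Of the pro-inflammatory diet libraries, 4 lay below every normal diet library, and library 5 did not (log2 fold change -0.38, SE 0.10, limma adjusted p = 0.173). Its promoter window is among those printed above.

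Tpm1, a tropomyosin that runs along the actin filament (chromosome 9, 67022590 to 67049406, minus strand), had the smallest unadjusted p of this role. It was at 227, 176, 203, 209.5 and 212 FPKM for normal diet and 157, 154, 158, 168 and 192 for pro-inflammatory diet (log2 fold change -0.31, SE 0.08, adjusted p = 0.173). Again 4 of 5 pro-inflammatory libraries lay below the whole normal diet range, with library 5 as the exception. Tpm2, its paralog, was at 246, 181, 205, 239 and 245 against 182, 136, 156, 193 and 205 FPKM, with overlap (log2 fold change -0.36, adjusted p = 0.212). Myh11, the smooth muscle myosin heavy chain, was at 314, 202, 280.5, 258 and 282 for normal diet and 192, 216, 159, 193 and 280.2 on the other. Library 5 of the pro-inflammatory diet thus matched the normal diet level of Myh11, and its log2 fold change was -0.37, or -0.55 without libraries 2 and 5.

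Both smooth muscle actins had lower means for pro-inflammatory diet, with overlap, and their ratio did not separate the diets (exact permutation p = 0.302). Acta2, the form that also marks vascular smooth muscle and myofibroblasts, was at 569, 395, 449, 468 and 526 FPKM for normal diet and 417, 313, 351, 396 and 393 for pro-inflammatory diet (log2 fold change -0.36, adjusted p = 0.185). Actg2, the visceral form, was at 874, 502, 659, 705 and 825 against 519, 502, 567, 646 and 751 (log2 fold change -0.25, adjusted p = 0.426). The calponin gene Cnn1 resembled Actg2, at 345 ± 70.2 against 297 ± 42.8 FPKM, and neither reached an unadjusted p of 0.05. Actin genes resemble each other in coding sequence, as tropomyosin genes do to a lesser degree, and some reads may be shared. The sources used here do not say how the counting divided such reads. The caldesmon gene Cald1, the leiomodin gene Lmod1 and the smoothelin gene Smtn had log2 fold changes of -0.39, -0.26 and -0.32.

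Of 3 genes that set the phosphorylation of myosin, 2 were lower at an unadjusted p under 0.05 (9.25% of all genes tested), Mylk and Ppp1r12b. Mylk, the myosin light chain kinase, was at 103, 71.3, 99.6, 81.0 and 94.3 FPKM for normal diet and 67.8, 84.0, 52.6, 59.9 and 88.0 for pro-inflammatory diet. Ppp1r12b, a targeting subunit of the myosin phosphatase, was at 23.5, 13.7, 19.5, 19.6 and 22.2 against 15.5, 16.0, 11.2, 14.0 and 16.7. Both overlapped between the diets, with log2 fold changes of -0.36 and -0.39 and limma adjusted p of 0.268 and 0.218. Ppp1r14a, which encodes an inhibitor of that phosphatase (CPI-17), was at 17.7, 11.8, 11.1, 14.5 and 19.2 FPKM for normal diet and 19.3, 14.8, 12.1, 14.8 and 12.6 for pro-inflammatory diet. A difference between it and the other 2 genes was not tested. Its means were 14.9 ± 3.54 and 14.7 ± 2.83, and the sign of its log2 fold change turned under 8 of the 24 other settings tried.

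Among the 11 genes of dense bodies and intermediate filaments, 11 of 11 had lower means and 8 an unadjusted p under 0.05 (9.25% of all genes tested), with a median of -0.31. Des, the muscle intermediate filament protein desmin, was at 362, 223, 317, 318 and 332 FPKM for normal diet and 238, 212, 225, 257 and 291 for pro-inflammatory diet (log2 fold change -0.33). Only normal diet library 2 reached into the range of the other diet. Synm, whose product synemin joins desmin filaments to adhesion sites, had a larger difference, at 41.8, 27.4, 37.5, 36.0 and 43.5 against 24.3, 20.2, 22.1, 29.4 and 31.5 FPKM (log2 fold change -0.53, SE 0.15, adjusted p = 0.173). Flna, filamin A, which crosslinks actin in many cell types, had the smallest unadjusted p of the role. It was at 231, 158, 203, 197 and 211 FPKM for normal diet and 158, 146, 129, 149 and 166 for pro-inflammatory diet (log2 fold change -0.41, SE 0.10, adjusted p = 0.166). Actn1, the actin crosslinker alpha-actinin 1, showed little spread, at 59.5 ± 3.7 against 54.0 ± 1.48 FPKM. Svil, Nexn, Csrp1, Synpo2, Pdlim7 and Pdlim3 had log2 fold changes of -0.46, -0.35, -0.31, -0.30, -0.29 and -0.21.

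Ldb3, which encodes a PDZ-LIM protein of the Z-disc that striated muscle also expresses, followed another pattern. It was at 3.56, 3.53, 3.08, 7.21 and 3.01 FPKM for normal diet and 2.65, 4.57, 3.25, 2.93 and 5.19 for pro-inflammatory diet. The highest value was that of normal diet library 4, the library with the skeletal muscle markers, and next came pro-inflammatory diet libraries 5 and 2, those with the lowest Hoxb13. Its log2 fold change was -0.08, and 0.11 without normal diet library 4. Of the 13 skeletal markers, the myosin gene Myh4 was listed at 0 in 9 of 10 libraries, and the part of skeletal muscle RNA in the Ldb3 value was not tested.

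**Figure D3:**
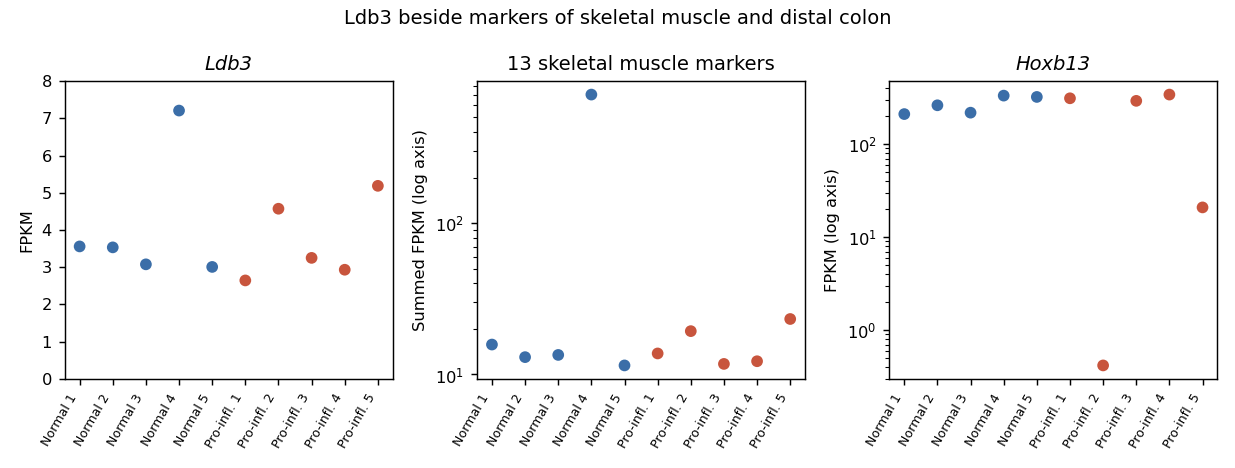
FPKM of Ldb3 (left), summed FPKM of 13 skeletal muscle markers (middle, log axis) and FPKM of Hoxb13 (right, log axis) in the 10 libraries, normal diet in blue and pro-inflammatory diet in red. Normal diet library 4 is the highest for Ldb3 (7.21) and for the skeletal markers (706), and pro-inflammatory diet libraries 2 and 5 are the lowest for Hoxb13.

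Costamere and adhesion genes, which tie the filaments to integrins and the matrix, had lower means for 5 of 6, and 5 at an unadjusted p under 0.05 (9.25% of all genes tested). Lpp, a LIM protein of adhesion plaques with a model length of 21292 bases (chromosome 16, 24393507 to 24992578, plus strand), had the smallest unadjusted p of all 39 genes. It was at 17.0, 13.6, 15.4, 14.1 and 16.1 FPKM for normal diet and 11.8, 9.88, 10.7, 11.6 and 10.7 for pro-inflammatory diet, with no overlap (log2 fold change -0.44, SE 0.07, adjusted p = 0.151). Vcl, the plaque protein vinculin, was at 43.5, 38.5, 43.2, 45.9 and 43.6 against 36.6, 36.4, 35.8, 39.2 and 33.1, and overlapped only through library 4 of the pro-inflammatory diet, at 39.2, above normal diet library 2. Itga8, an integrin alpha subunit of smooth muscle (chromosome 2, 12106632 to 12301922, minus strand), had the largest difference of the 39. It was at 3.13, 1.91, 2.61, 2.11 and 3.14 FPKM for normal diet and 1.998, 1.14, 1.283, 1.53 and 1.08 for pro-inflammatory diet, a ratio of means of 0.546 (log2 fold change -0.57, SE 0.14, adjusted p = 0.166). Its lowest values were in pro-inflammatory diet libraries 2 and 5, and without them its log2 fold change was -0.45. Pgm5, which encodes the costamere protein aciculin, was at 42.5, 29.6, 36.5, 36.4 and 46.7 against 29.5, 23.1, 22.4, 31.1 and 26.3 (log2 fold change -0.51, adjusted p = 0.166). Tns1, tensin 1, had a log2 fold change of -0.43.

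The exception among the adhesion genes was Tgfb1i1, whose product Hic-5 is a LIM protein of focal adhesions and a coactivator (chromosome 7, 128246812 to 128255699, plus strand). It was at 30.2, 21.2, 28.3, 27.2 and 29.1 FPKM for normal diet and 30.2, 30.1, 22.6, 26.5 and 27.5 for pro-inflammatory diet. Its means were 27.2 ± 3.52 and 27.4 ± 3.14, and its log2 fold change of 0.01 was the only one of the 39 above 0. That sign turned under 9 of 24 other settings.

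Ion channel, calcium and cyclic GMP genes had lower means for 6 of 6, with 4 at an unadjusted p under 0.05 (9.25% of all genes tested). Cacna1c, the pore of the L-type calcium channel (chromosome 6, 118587240 to 119196418, minus strand), was at 3.24, 2.32, 3.17, 2.32 and 2.64 FPKM for normal diet and 1.89, 2.05, 1.53, 1.64 and 2.01 for pro-inflammatory diet, with no overlap. Its log2 fold change was -0.40 (SE 0.10, adjusted p = 0.166). Pde5a, the phosphodiesterase that breaks down cyclic GMP, was at 29.2, 27.4, 31.7, 22.2 and 26.9 against 20.3, 23.4, 15.7, 17.9 and 23.1 (log2 fold change -0.44, adjusted p = 0.173). Only normal diet library 4 reached into the other range. Kcnmb1 and Kcnma1 encode subunits of the large-conductance potassium channel. The beta subunit Kcnmb1 was at 5.93, 3.94, 5.15, 4.76 and 6.21 against 4.11, 2.41, 3.63, 3.86 and 3.42 (log2 fold change -0.47, adjusted p = 0.173). The pore Kcnma1 was at 3.29, 2.16, 3.39, 2.16 and 2.93 against 2.26, 2.91, 2.05, 2.01 and 3.03, with overlap (log2 fold change -0.13, adjusted p = 0.607). Pro-inflammatory diet libraries 2 and 5 were the lowest of that diet for Kcnmb1 and the highest for Kcnma1. Jph2, a junctophilin, and Hspb6, a small heat shock protein of smooth muscle, had log2 fold changes of -0.26 each.

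For the regulators Myocd and Tead1 the values of the 2 diets did not overlap, as for 2.07% of all genes tested in this direction. Myocd, the coactivator that switches on contractile genes (chromosome 11, 65176561 to 65269989, minus strand), was at 3.08, 2.08, 2.74, 1.99 and 2.81 FPKM for normal diet. It was at 1.47, 1.66, 1.32, 1.77 and 1.94 for pro-inflammatory diet (log2 fold change -0.42, SE 0.11, adjusted p = 0.173). The gap was narrow, between 1.94 and 1.99, and 202 to 423 reads per library lay behind these values. Tead1, which is expressed in many cell types (chromosome 7, 112679318 to 112906807, plus strand), was at 8.74, 7.12, 7.69, 7.95 and 7.62 against 5.49, 6.40, 5.46, 6.39 and 5.70 (log2 fold change -0.36, SE 0.07, adjusted p = 0.151). Among 12 other tested regulators of smooth muscle transcription, 5 were lower at an unadjusted p under 0.05 (9.25% of all genes) and 0 higher (8.16%), with a median of -0.13. Those with the smallest p were Yap1, a TEAD coactivator, Wwtr1, its paralog TAZ, and Mef2d, at -0.28, -0.35 and -0.22 (adjusted p = 0.166, 0.166 and 0.184), while Srf itself was at 16.8 against 15.8 FPKM (adjusted p = 0.531).

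**Figure D4:**
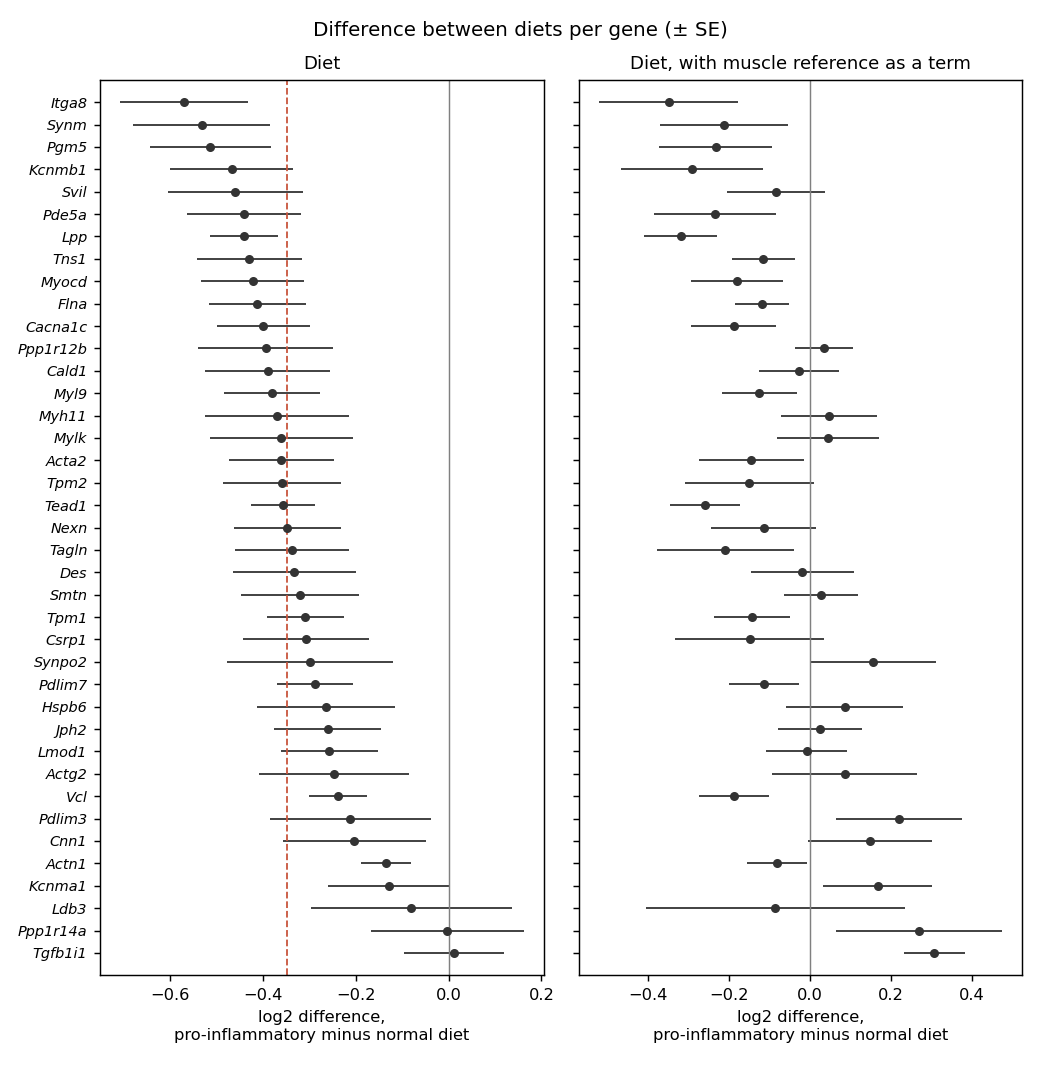
Log2 difference between the diets (pro-inflammatory minus normal, horizontal axes) with its standard error for each of the 39 genes, without (left) and with (right) the level of other smooth muscle genes as a term in the fit. The dashed line marks the median of -0.35. On the right 26 values lie below 0 and 13 above, with a median of -0.11, between -0.35 for Itga8 and 0.31 for Tgfb1i1.

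To find genes that depart from the muscle level of their own library, the fit was repeated with a reference score as a term, the mean log2(FPKM + 1) of 22 other smooth muscle genes, none of them among the 39. The reference genes themselves had lower values for pro-inflammatory diet in 18 of 22, 8 at an unadjusted p under 0.05 (9.25% of all genes), with a median of -0.23. Those with the smallest p were Itpr1, Prkg1 and Chrm2, a calcium release channel, the cyclic GMP-dependent kinase and a muscarinic receptor, at -0.28, -0.45 and -0.76 (adjusted p = 0.156, 0.173 and 0.173). With the reference in the fit, 26 of the 39 genes were below 0 and 13 above, with a median of -0.11. At an unadjusted p under 0.05, 2 were lower, Lpp and Tead1, where 7.13% of all genes tested were lower. The only gene higher was Tgfb1i1, where 8.58% were higher. These are 5.13% and 2.56% of the 39, below the shares over all genes in this fit, and 0 genes passed the adjusted threshold (a background of 0%). Lower departures were more frequent among the 39 than over all genes under some other settings. They numbered 7 of 39 with the replicate number as a block (7.59% of all genes) and 5 with the distal colon score (5.38%). When pro-inflammatory diet libraries 2 and 5 were left out there were 4 (3.44%). With a ratio to the reference in place of the term, 7 of the 39 were lower (0.34% of all genes) and 1 higher (35.3%). The reference was itself lower for pro-inflammatory diet, so dividing by it raises the log2 fold change of every gene alike. The 0.34% is therefore not a comparable background.

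The diet term of Tgfb1i1 was 0.31 (SE 0.07, limma adjusted p = 0.239), that of Lpp -0.32 (SE 0.09, adjusted p = 0.240) and that of Tead1 -0.26 (SE 0.09, adjusted p = 0.262). Over the other settings tried, the term ranged from 0.23 to 0.36 for Tgfb1i1, from -0.40 to -0.19 for Lpp and from -0.31 to -0.13 for Tead1. For Lpp it was -0.19 without pro-inflammatory diet libraries 2 and 5. Myh11, Mylk, Ppp1r12b, Smtn, Jph2, Cald1, Des and Lmod1 had terms within 0.05 of 0. Their standard errors, from 0.07 to 0.13, were wider than that band, so departures of that size could not be resolved. The terms of Itga8, Kcnmb1 and Pgm5 were -0.35, -0.29 and -0.23, with standard errors of 0.17, 0.18 and 0.14, and did not reach an unadjusted p of 0.05.

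The same was described within each library as the FPKM of a gene per 100 FPKM of the core genes, each core gene being left out of its own sum. On this scale 34 of the 39 genes varied less across the 10 libraries than in FPKM, with a median ratio of highest to lowest library of 1.51 against 1.85. The same count over all genes tested was not made. The 12 core genes are themselves among the 39, so the scale is drawn from the genes it describes. Tpm1 and Des were the steadiest, with a highest-to-lowest ratio of 1.17 each. Tgfb1i1 was at 0.664, 0.684, 0.746, 0.713 and 0.677 per 100 for normal diet and 0.961, 1.12, 0.780, 0.813 and 0.748 for pro-inflammatory diet. It was the only one of the 39 whose diets did not overlap on this scale, higher for pro-inflammatory diet, where 7.54% of all genes tested were higher in this way and 0.0405% lower. As 1 of 39, that is a smaller share than over all genes. The core sum was itself lower on average for pro-inflammatory diet (ratio of means 0.80), so dividing by it raises values for that diet. Ppp1r14a was at 0.378 against 0.476 on average, with overlap, and Itga8 at 0.0655 against 0.0454.

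**Figure D5:**
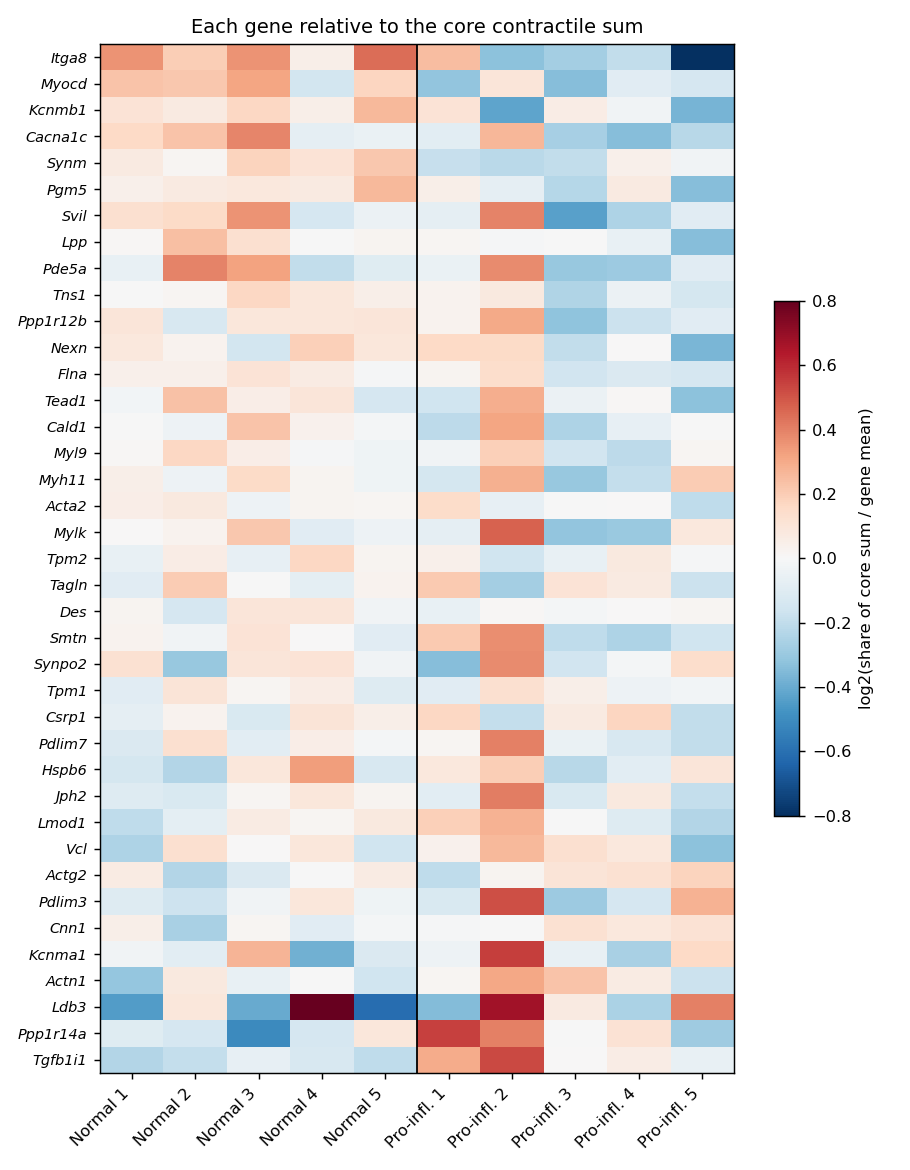
Each of the 39 genes per unit of the core contractile sum of the same library, as log2 relative to the gene's own mean over the 10 libraries (colour), with normal diet libraries left of the black line. Genes are ordered by their mean for pro-inflammatory diet, from Itga8 at the top to Tgfb1i1 at the bottom.

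The muscle genes of pro-inflammatory diet libraries 2 and 5, which had the lowest Hoxb13, were also set beside those of the other 3 libraries of that diet, a grouping chosen after the values were seen. In FPKM both lay above the other 3 for 12 of the 39 genes, among them Myh11, Mylk, Synpo2, Pdlim3, Kcnma1, Cacna1c and Pde5a, where 22.2% of all genes tested did. Both lay below for 2 of the 39, Itga8 and Kcnmb1, where 27.7% of all genes did. Per 100 FPKM of the core genes, both lay above for 10 of the 39 (12.6% of all genes) and below for 5, Acta2, Tagln, Csrp1, Itga8 and Kcnmb1 (15.1% of all genes). Pdlim3, a PDZ-LIM protein of dense bodies, was at 1.86 and 1.58 per 100 in these libraries and 1.07 to 1.196 in the other 3. Kcnma1 was at 0.109 and 0.0826 against 0.0617 to 0.0719.

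Ratios between paired genes, which do not depend on the total of a library, did not separate the diets in 5 pairs tested with a two-sided exact permutation test (smallest possible p = 0.00794). Actg2 to Acta2 was 1.47 ± 0.117 for normal diet and 1.60 ± 0.238 for pro-inflammatory diet (SD, n = 5 each, exact permutation p = 0.302, adjusted p = 0.503 over the 5 pairs). Kcnmb1 to Kcnma1 was 1.80, 1.83, 1.52, 2.21 and 2.12 for normal diet. It was 1.82, 0.828, 1.77, 1.92 and 1.13 for pro-inflammatory diet (exact permutation p = 0.19, adjusted p = 0.476), and the low ratios were those of libraries 2 and 5. Myocd to Tead1 was 0.324 ± 0.0505 against 0.277 ± 0.0374 (n = 5 each, exact permutation p = 0.127, adjusted p = 0.476). Tpm2 to Tpm1 and Mylk to Ppp1r12b gave exact permutation p of 0.563 and 0.556 (adjusted p = 0.563 each).

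Markers of other cells of the colon wall were read beside these values. Of all 12345 genes tested, 52.9% had a negative log2 fold change. Summed FPKM of 12 epithelial markers ranged from 6671 to 9039 for normal diet and 8244 to 11729.7 for pro-inflammatory diet, and 3 of the 12 were higher at an unadjusted p under 0.05 (8.16% of all genes). These 3, Car1, Phgr1 and Cdh17, were each highest in pro-inflammatory diet libraries 2 and 5. Phgr1 was at 331 and 313 FPKM there and 172 to 207 in the other 3, and Cdh17 at 299 and 300 there and 221 to 246. The count of such genes without libraries 2 and 5 was not made. Without them the summed range for pro-inflammatory diet was 8244 to 9896. Much of the excess in those libraries was the carbonic anhydrase gene Car1, at 3568 and 2334 FPKM there and 395 to 845 in the other 3, and Krt20, a keratin of surface cells, was at 644 and 680.2 there and 197 to 240.2 in the other 3. Fibroblast and PDGFRA cell markers were lower in 9 of 10, 4 at an unadjusted p under 0.05 (9.25%), with a summed FPKM of 432 to 545 against 332 to 472 and a median log2 fold change of -0.27. Enteric neuron markers were lower in 9 of 9 tested, 0 at that threshold, with summed FPKM of 55.9 to 86.5 against 31.7 to 83.1. In pro-inflammatory diet libraries 1 to 5 these sums were 67.8, 82.3, 41.4, 31.7 and 83.1, with libraries 2 and 5 the highest. For enteric glia, interstitial cells of Cajal, endothelium, and vascular smooth muscle and pericytes, 1 of 4, 1 of 2, 3 of 5 and 3 of 6 were lower. Both markers of interstitial cells of Cajal rested on pro-inflammatory diet libraries 2 and 5. Kit was at 29.1 and 28.6 FPKM there and 12.6 to 16.4 in the other 3 (normal diet 11.3 to 24.4). Ano1 was at 13.9 and 18.5 there and 43.8 to 54.0 in the other 3 (normal diet 39.9 to 48.5). The summed FPKM of the vascular list was 68.2 ± 16.6 against 68.3 ± 23.7, but the near-equal means rest on 2 libraries. By library, the pro-inflammatory sums split into 96.9 (library 2) and 89.9 (library 5), against 46.0 to 60.3 for the rest. Normal diet sums ranged from 52.8 to 90.4. Rgs5 of this list split likewise, at 70.4 and 66.9 FPKM against 23.8 to 32.6, with normal diet at 27.8 to 60.2. Of the 6 genes, 1 was lower at an unadjusted p under 0.05, the potassium channel subunit Abcc9. Actin-binding and adhesion genes of many cell types were lower in 14 of 20 and had a median of -0.04, with 1 lower and 1 higher at that threshold. Skeletal muscle and distal colon lists had lower values in 7 of 7 and 6 of 6 tested genes, 0 at that threshold. Without normal diet library 4, mean FPKM of 5 of the 7 skeletal muscle genes was higher for pro-inflammatory diet and of 2 lower. Without pro-inflammatory diet libraries 2 and 5, mean FPKM of 4 of the 6 distal colon genes was lower for that diet and of 2 higher. The part of epithelial and fibroblast levels in the muscle differences was not tested.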

How the data were processed

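RNA of 10 mouse colon samples, 5 per diet, was sequenced as stranded mRNA libraries, per the labels' protocols. The authors deposited 1 table of FPKM values per gene and sample. Tools listed in the submitters' processing notes, with no role or version, are HTSeq, StringTie, Cufflinks, DESeq, Bowtie2, HISAT2 and Trimmomatic, and the build is mm10. Whether counting used the strand is not stated there, which leaves overlapping and antisense genes uncertain. Because FPKM divides by each library's total, abundant genes lower all others.

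The 39 genes and all lists were chosen with earlier results of these data known. The 12345 genes whose FPKM averaged 1 or more entered limma 3.58.1 (R 4.3.3) as log2(FPKM + 1) (eBayes with a mean trend, Benjamini-Hochberg over all tested genes, threshold 0.05). Fold changes are pro-inflammatory minus normal diet. Whole reads came out for 17570 genes, while 828 with a value in fewer than 2 libraries were left out of read totals. Coordinates are GENCODE M21 (GRCm38), 1-based. Named in full were, in each role, the genes of highest mean and smallest p, the 4 farthest above and below the median fold change, the paired genes and the departing genes. Genes of other lists were named by smallest p. Procedures were tested on simulated data. Other settings changed pseudocount, filter, scaling, variance model, weights, covariates and libraries. Voom was added after the data were seen. Figures used matplotlib 3.10.9.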

Additional observations from a re-analysis of the deposited data

Results flagged for a closer look

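Dixon's test at its 95% critical value of 0.71 was applied to the 5 libraries of each diet for the genes, shares, ratios and marker sums reported. It singled out 2 of 116 groups of values, where chance gives about 5% of groups. Both concern normal diet library 4. Its summed FPKM of skeletal muscle markers was 706, against 11.5 to 15.8 in the other 4. Its Ldb3 was at 7.21 FPKM, against 3.01 to 3.56.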

How the results depend on the processing

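Of the 39 log2 fold changes, 36 kept their sign under each of up to 24 other settings in which they were tested. The Ppp1r14a log2 fold change (main value -0.00267) turned to 0.000715 with quantile normalization, 0.0286 with array weights, 0.0767 with the distal score in the fit, 0.0644 or 0.0908 when normal diet library 1 or 5 was left out, 0.0592 and 0.0445 without pro-inflammatory diet library 3 or 5, and 0.0508 without libraries 2 and 5 of that diet. The Tgfb1i1 log2 fold change (main value 0.012) turned to -0.023 with TPM scaling, -0.0389 with array weights, -0.0209 with the length trend removed, -0.0391 with the distal covariate, -0.0716 without normal diet library 2, -0.0246 and -0.0227 without pro-inflammatory diet library 1 or 2, -0.0385 without libraries 2 and 5 of that diet, and -0.044 without normal diet libraries 1, 2 and 3. The Ldb3 log2 fold change (main value -0.0801) turned to 0.107 without normal diet library 4 and 0.00519 without pro-inflammatory diet library 1. The log2 difference of Tpm2 to Tpm1 turned from -0.0506 to 0.0107 without pro-inflammatory diet library 2. Leaving out each library gave -0.0987 to 0.0908 for Ppp1r14a, -0.185 to 0.107 for Ldb3 and -0.0716 to 0.0773 for Tgfb1i1. The causes were not tested.

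Leaving out each library in turn, 20 to 34 of the 39 genes were lower at an unadjusted p under 0.05, 4 to 24 did not overlap, the share difference was -0.355 to -0.232 points, 3 to 6 genes departed from the reference, and the log2 differences of the pairs were 0.0468 to 0.202 (Actg2 to Acta2), -0.0886 to 0.0107 (Tpm2 to Tpm1), -0.513 to -0.21 (Kcnmb1 to Kcnma1), 0.0133 to 0.0969 (Mylk to Ppp1r12b) and -0.31 to -0.171 (Myocd to Tead1). The count of 24 came without normal diet library 2 (3.19% of all genes). The departing genes were 5 without pro-inflammatory diet library 1 (9.21% of all genes lower, 10.2% higher), 4 (7.66%, 10.6%) or 5 (3.82%, 5.47%) and 6 without normal diet library 4 (9.11%, 9.3%). Genes without overlap numbered 2 at a mean FPKM of at least 5 (33 of the 39 genes tested, 2.11% of all genes), 8 with quantile normalization (2.24%), 7 without pro-inflammatory diet library 1 (4.13%), 11 without libraries 2 and 5 of that diet (4.33%) and 27 without normal diet libraries 1, 2 and 3 (5.82%), where fewer samples can overlap. Genes departing numbered 5 with a pseudocount of 0.1 (4 lower, where 8.29% of all genes were, and 1 higher, where 10.3% were), 7 with the distal covariate (5 lower, 5.38%, and 2 higher, 7.14%), 8 with a ratio in place of the covariate (7 lower, 0.34%, and 1 higher, 35.3%) and 5 when pro-inflammatory diet libraries 2 and 5 were left out (4 lower, 3.44%, and 1 higher, 5.86%). Over all genes, 1 passed the adjusted threshold for diet with the distal covariate (Kyat1). For departure, 0 to 2 passed when leaving out a library (the 2, Hsp90aa1 and Hspa4l, without normal diet library 3) and 1 with the core genes as reference (Bcl3). With the ratio 885 passed, 882 of them higher and 3 lower. That ratio divides every gene by a reference that was lower for pro-inflammatory diet, which shifts all genes upward. Kyat1, Hsp90aa1, Hspa4l and Bcl3 were named after their values were seen. Calls at an unadjusted p under 0.05 were 53.1% lower, and 72.2% with TPM scaling, which left 30 of the 39 genes lower (13.6% of all genes).

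The labels do not say that equal numbers mark a pair, and same-numbered libraries did not deviate together (correlations from -0.263 to 0.0613, 0 of 5 normal diet libraries correlating best with their own number). With the replicate block, 26 of the 39 genes were lower at an unadjusted p under 0.05 (7.8% of all genes), 8 departed from the reference (7 lower, where 7.59% of all genes were, and 1 higher, where 9.12% were), and 0 genes passed the adjusted threshold.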
